A study of Mus musculus with 2 samples.

Results

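The MYC and MAX network is a set of transcription factors that share the dimerization partner MAX, and 10 of its genes were described here in mouse common myeloid progenitors: Myc, Mycn, Mycl, Max, Mxd1, Mxd3, Mxd4, Mxi1, Mnt and Mlx. They were chosen by name, through their Ensembl gene identifiers, and all 10 were found among the 43346 Ensembl genes of each deposited gene table. Common myeloid progenitors are bone marrow cells that can still form both granulocyte and monocyte or megakaryocyte and red cell offspring. The cells were primary, untreated as far as the labels say, and taken from C57BL/6J males (adult, 5 to 6 weeks old). The study holds 1 group of 2 libraries, labelled biological replicates 1 and 2, each of total RNA depleted of ribosomal RNA, started from 100 ng and prepared with ScriptSeq, a library kit. Both carry a single donor label, so their spread may be partly technical. With no second group, nothing could be tested between conditions, and values are given for each library and as mean ± SD (n = 2).

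Proteins of the MYC family bind DNA only as dimers with MAX, through a basic helix-loop-helix leucine zipper, and switch on genes of growth, ribosome assembly and metabolism. MXD proteins, MXI1 and MNT compete for MAX and bring corepressors to the same short DNA element, the E-box CACGTG. MLX forms a parallel branch: it pairs with MXD1, MXD4 and MNT and with the nutrient-sensing factors encoded by Mlxip and Mlxipl. In blood formation MYC drives proliferation of progenitors, and the MXD proteins are known for their rise during terminal differentiation.

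Sequences are shown for the places where network members differ in make-up or carry the network's own DNA element. Max has a short coding exon that is present in the transcript Max-202 and absent from Max-201. It lies at chr12:76961263-76961289 on the minus strand of GRCm38, is 27 bases long and follows 36 coding bases. This exon separates the known long and short forms of the MAX protein and sits ahead of the DNA-binding region. In the lines below the exon is in capitals, and the 15 flanking bases on each side are in lower case, from the GENCODE M21 transcripts.
Max-202: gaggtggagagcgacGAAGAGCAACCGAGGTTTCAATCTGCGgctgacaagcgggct
Max-201: gaggtggagagcgacgctgacaagcgggct

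Mlx has a coding exon of 90 bases, chr11:101088236-101088325 on the plus strand, that is present in Mlx-201 and absent from Mlx-203. The same conventions hold in the next lines. Mlx-201 also has 162 further coding bases in its first exon, chr11:101087368-101087529, which are not printed.
Mlx-201: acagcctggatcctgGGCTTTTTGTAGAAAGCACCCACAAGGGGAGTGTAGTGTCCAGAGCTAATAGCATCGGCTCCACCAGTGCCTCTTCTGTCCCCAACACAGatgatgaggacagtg
Mlx-203: acagcctggatcctgatgatgaggacagtg

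The E-box CACGTG, which reads the same on both strands, was searched in RefSeq promoter windows of GRCm38.p6 that run from 250 bases before to 50 bases after each start site. Of the 10 genes, 9 had a window, and 4 of these 9 held the element: Max, Mxd4, Mnt and Mlx. Over all 32851 windows the share with the element was 7.15%, and over all 27025 genes with a window it was 8.09%. Among nuclear protein-coding genes at 1 TPM or more in both libraries the share was 12.4%. TPM is a level corrected for transcript length and scaled to a fixed sum per library. The stretches below end before the start site, except that the element of Max begins 3 bases before it and runs across it. The E-box is in capitals.
Max, chr12:76962246-76962281, minus strand: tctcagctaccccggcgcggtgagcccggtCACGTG
Mxd4, chr5:34187894-34187959, minus strand: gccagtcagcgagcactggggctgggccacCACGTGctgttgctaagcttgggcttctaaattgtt
Mnt, chr11:74830771-74830836, plus strand: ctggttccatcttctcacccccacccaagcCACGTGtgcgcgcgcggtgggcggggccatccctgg
Mlx, chr11:101087220-101087285, plus strand: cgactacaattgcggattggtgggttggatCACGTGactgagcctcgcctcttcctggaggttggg

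The element began 219 bases before the start in Mxd4, 123 bases before it in Mnt and 40 bases before it in Mlx. Genes that MYC is known to induce were searched in the same way, and 8 of the 23 with a window held the element, or 34.8%. This stands beside 8.09% of all genes with a window and 12.4% of nuclear protein-coding genes at 1 TPM or more in both libraries. Cdk4, a cyclin-dependent kinase gene, held the element at 4 places, and Eif4a1, which encodes a translation helicase, held it 189 bases before its start. In the Cdk4 stretch the capitals mark the element 118 bases before the start, and the next copy, 98 bases before it, follows in lower case. Of these 2 genes' windows, the stretches were as follows.
Cdk4, chr10:127063387-127063452, plus strand: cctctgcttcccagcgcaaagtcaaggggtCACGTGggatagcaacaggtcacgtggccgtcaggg
Eif4a1, chr11:69672577-69672642, minus strand: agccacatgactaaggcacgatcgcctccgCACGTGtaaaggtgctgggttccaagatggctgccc
A match describes the letters in these windows and says nothing of binding in these cells.

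Replicate 1 held 28158803 expected counts (estimated reads) and replicate 2 held 84041054, 2.98 times as many, and their stated size ranges were 200 to 1000 and 187 to 1606. The labelled cell type was checked with markers. All 4 progenitor markers (Cd34, Myb, Kit, Flt3) were at 1 TPM or more in both libraries, with Cd34 at 125 and 121 TPM, while none of the 4 stem cell markers reached that level in both. The 4 B cell, 4 T cell and 4 stromal markers each summed to at most 0.57 TPM per library, and Pax5, Ebf1, Cd79a, Cd3e, Cd8a, Col1a1 and Cdh5 had 0 counts in both. Of 8 late neutrophil markers, 5 were at 1 TPM or more in both, led by S100a8 and S100a9, and the list summed to 256 and 264 TPM. Of 4 markers of maturing red cells, 2 were at 1 TPM or more in both, and the list summed to 11.3 and 11.6 TPM. Over all nuclear protein-coding genes, 42.5% were at 1 TPM or more in both. Macrophage markers summed to 3.12 and 7.45 TPM, most of it from Cd68. In bulk RNA, fewer cells of a type and less RNA per cell cannot be told apart.

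Per transcript length, Myc led the 10 genes, followed by its partner Max, and each of the 5 MAX-binding repressors was lower than Max in both libraries. Of the 10 genes, 8 were at 1 TPM or more in both libraries, beside 42.5% of 21461 nuclear protein-coding genes. Mycl and Mxd3 fell short of that level. The order by mean TPM was Myc, Max, Mlx, Mxd4, Mxi1, Mycn, Mxd1, Mnt, Mxd3 and Mycl, and both libraries gave this same order. The ranges of neighbours over both libraries overlapped between Mxd4 and Mxi1, Mycn and Mxd1, Mxd1 and Mnt, and Mnt and Mxd3. The order of these neighbours thus holds within each library only. From coding transcripts alone, Mxd4 was above Mlx and Mxd3 above Mnt in replicate 2. The median of the 10 genes was 2.88 TPM in replicate 1 and 3.82 in replicate 2, beside 0.29 and 0.35 over all nuclear protein-coding genes.

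**Figure D1:**
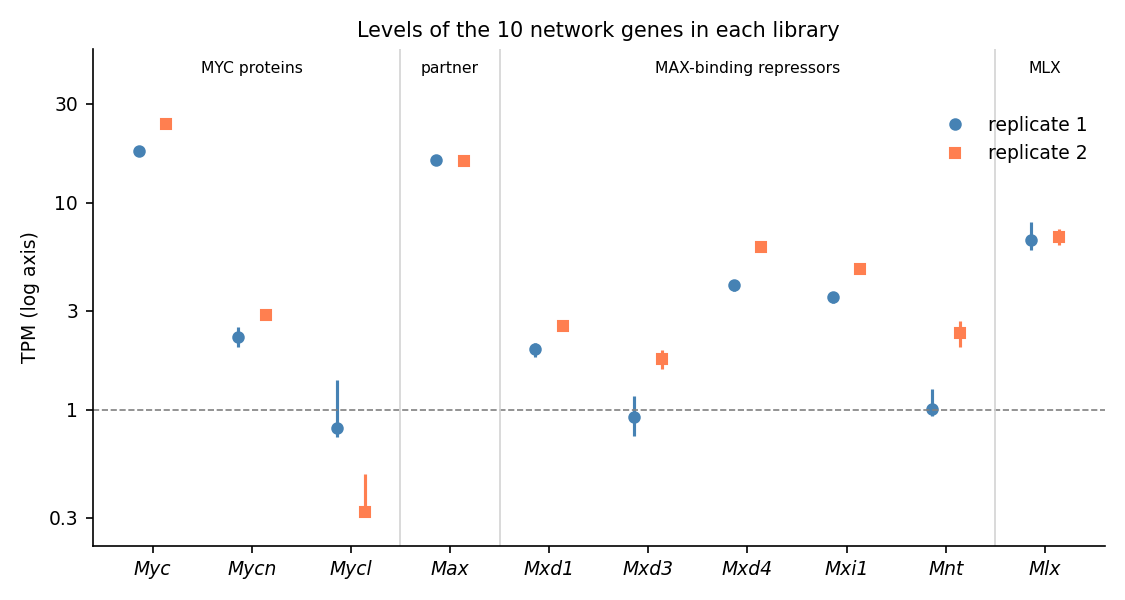
TPM of the 10 network genes (log axis) in replicate 1 (circles) and replicate 2 (squares), with the deposited interval of each value as a vertical line and 1 TPM as a dashed line. Myc and Max stand above 15 TPM in both libraries, and Mycl is the lowest gene in both.

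Myc (ENSMUSG00000022346.10, chr15:61985391-61990374, plus strand), the family member of most dividing cells, stood at 17.8 TPM in replicate 1 and 24.03 TPM in replicate 2, or 20.9 ± 4.41 TPM. It rested on 2802 and 9695 expected counts. Its level was above that of 91.3% of nuclear protein-coding genes in replicate 1 and 92.9% in replicate 2. The 3 genes nearest to Myc in log2(TPM + 1) over the 2 libraries were Ptcd3 at 17.63 and 23.77 TPM, Tmbim6 at 17.53 and 24.25 TPM and Arhgap45 at 17.87 and 23.61 TPM, at Euclidean distances of 0.020, 0.024 and 0.025. With only 2 libraries this likeness is one of level.

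Mycn (chr12:12936093-12941914, minus strand), the paralog best known from embryonic and neural tissue and also active in blood stem cells, stood at 2.24 and 2.87 TPM. Its mean of 2.56 ± 0.445 TPM placed it at percentiles 63.7 and 64.4 of nuclear protein-coding genes. Myc exceeded it 7.95-fold in replicate 1 and 8.37-fold in replicate 2. Both MYC paralogs were thus measured in each library, with Myc the higher in each.

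Mycl (chr4:122995652-123002485, plus strand), the family member known from dendritic cells, stood at 0.81 TPM in replicate 1 and 0.32 in replicate 2, or 0.565 ± 0.346 TPM. The counts were 166 and 194, although replicate 2 was the deeper library. In CPM (counts scaled to the library total) this was 5.90 and 2.31, so Mycl was lower in replicate 2. It was the only member lower by more than 2-fold, at 2.54-fold. Summed macrophage markers were higher in replicate 2, where Mycl was lower. Most of that sum was Cd68, at 2.29 and 6.47 TPM. Adgre1 and C1qb were also higher in replicate 2, while C1qa was lower, at 0.56 and 0.32 TPM. The part of these markers in the difference was not tested.

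Max (ENSMUSG00000059436.8, chr12:76937269-76962201, minus strand), the obligate partner, stood at 16.02 TPM in replicate 1 and 15.79 TPM in replicate 2, or 15.9 ± 0.163 TPM. In TPM the libraries were close, and their deposited intervals overlapped, at 15.1 to 16.5 TPM and 15.3 to 16.1 TPM. In CPM, Max stood at 77.0 in replicate 1 and lower, at 65.2, in replicate 2. Summed MYC proteins exceeded Max 1.30-fold in replicate 1 and 1.72-fold in replicate 2.

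The 5 MAX-binding repressors were led by Mxd4 and Mxi1, which together made up 65.8% of their summed TPM in replicate 1 and 62.2% in replicate 2. Mxd4 (chr5:34173883-34187720, minus strand), which encodes the repressor MAD4, stood at 4.01 and 6.09 TPM. Mxi1 (chr19:53310518-53375810, plus strand), which encodes the MAX interactor first found by its binding to MAX, stood at 3.51 and 4.77 TPM. Mxd4 was above Mxi1 within each library, although their ranges over both libraries overlapped.

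Mxd1 (chr6:86647042-86669161, minus strand), the repressor known for its rise in maturing myeloid cells, was lower, at 1.97 and 2.53 TPM. Mxd4 exceeded it 2.04-fold and 2.41-fold. Mnt (chr11:74830920-74845725, plus strand), the broadly expressed antagonist of MYC, stood at 1.01 and 2.33 TPM, the widest relative TPM gap among the members that were higher in replicate 2. Mxd3 (chr13:55325168-55329823, minus strand), the MXD member tied to dividing cells, was the lowest repressor by gene TPM, at 0.92 and 1.75 TPM on 78 and 383 counts. From coding transcripts alone, Mxd3 stood at 0.9 and 1.75 TPM and Mnt at 1.01 and 1.51 TPM. Mnt was thus the lower of them in replicate 2.

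Mlx (chr11:101087277-101092207, plus strand) stood at 6.57 TPM in replicate 1 and 6.79 in replicate 2, or 6.68 ± 0.156 TPM. By gene TPM it was the highest member after Myc and Max, and its deposited intervals overlapped between libraries. From coding transcripts alone, Mlx stood at 4.42 and 5.51 TPM and Mxd4 at 4.01 and 6.09 TPM. Mxd4 was thus the higher of them in replicate 2. Mxd3, Mxd4, Mxi1 and Mlx overlap genes of the opposite strand in M21. Whether the counting used strand is not given in the sources used here. The partner of Mxd3, Prelid1, had 1660 and 5158 counts, more than Mxd3, and that of Mlx, Psmc3ip, had 825 and 1858. The partner of Mxi1, Gm10197, had 0 in both. That of Mxd4 is not among the genes counted here, so its reads are not known.

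Seen as a pool, the transcripts of these 10 genes were divided mainly between the MYC proteins and Max. Summed TPM of all 10 genes was 54.9 in replicate 1 and 67.3 in replicate 2. The MYC proteins made up 38.0% and 40.5% of it, or 39.2% ± 1.74, and Myc alone was 85.4% and 88.3% of the MYC proteins. Max made up 29.2% and 23.5%, the 5 MAX-binding repressors 20.8% and 26.0%, and Mlx 12.0% and 10.1%.

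**Figure D2:**
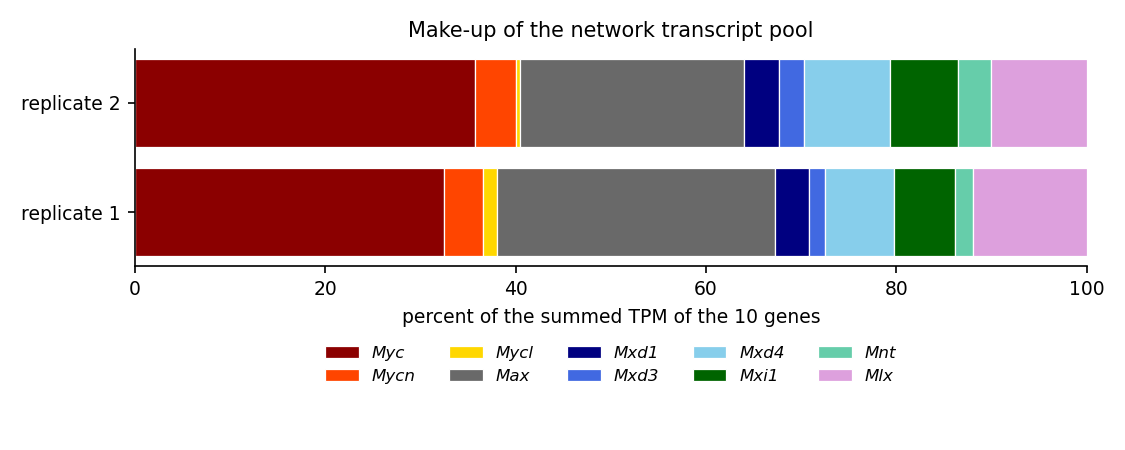
Percent of the summed TPM of the 10 genes held by each gene in replicates 1 and 2. The MYC proteins (red to gold) hold 38.0% and 40.5%, Max (grey) 29.2% and 23.5%, and the repressors (blue to green) 20.8% and 26.0%.

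MYC proteins exceeded the 5 MAX-binding repressors 1.83-fold in replicate 1 and 1.56-fold in replicate 2, a log2 ratio of 0.75 ± 0.16. This order holds per length of transcript. In CPM, which gives long transcripts more weight, the mean log2 ratio was -0.11. The effective lengths of Mxd4, Mxi1, Mxd1 and Mnt were all above that of Myc in both libraries. Relative to Max, the repressors summed to 0.713 in replicate 1 and 1.11 in replicate 2, so the libraries placed them on opposite sides of Max. Myc over Max was 1.11 and 1.52, above 1 in both. Transcript levels are not protein levels, and dimers were not measured.

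Between the libraries, Mycl differed most of the 10 members, and the part of the members past 2-fold lay between the shares of all genes given below. With TMM scaling in edgeR, 1 of 10 members differed 2-fold or more in CPM, beside 20.8% of the 15102 genes whose mean expected count was 10 or more. At a mean count of at least 100, which all 10 members reached, the share was 6.78%. Mycl had a log2 ratio of replicate 2 over replicate 1 of -1.35. The next largest were Mxd3 at 0.72, Mnt at 0.46 and Mxd4 at 0.38. Mxi1 had 0.25, Myc 0.22, Mycn 0.21, Mxd1 0.14 and Mlx 0.10, and Max had -0.24. Of the 10 members, 8 were higher in replicate 2 by this measure, and 7 by posterior mean TPM, where Mlx had -0.01.

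**Figure D3:**
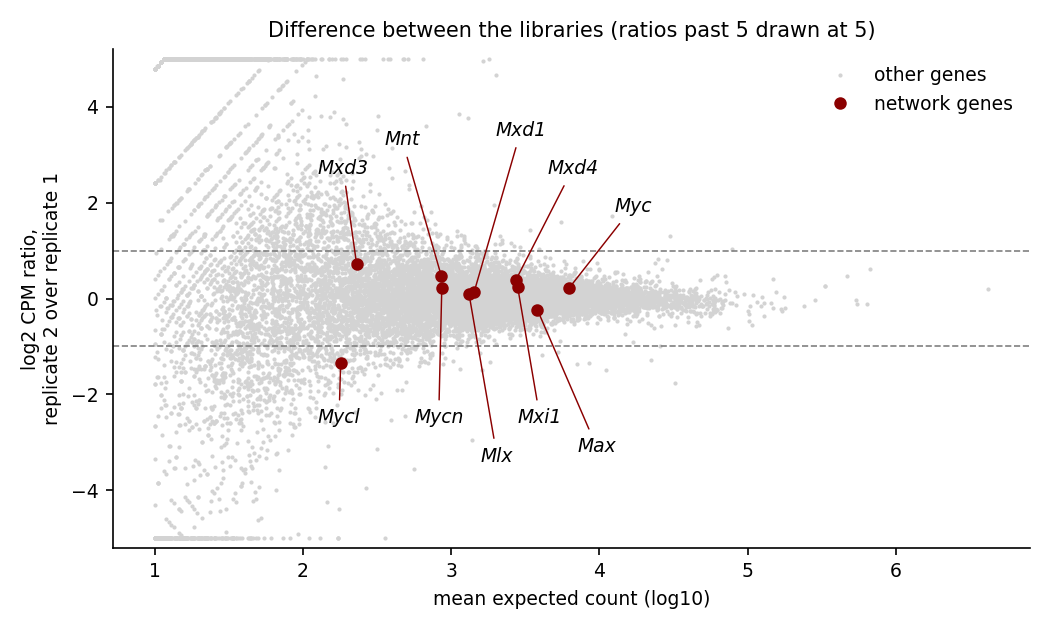
Log2 CPM ratio of replicate 2 over replicate 1 (TMM scaling) against the mean expected count (log10) of each gene, with the network genes in dark red and 2-fold differences as dashed lines. Mycl, at -1.35, is the only network gene outside the dashed lines.

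The size of these ratios depended on the unit. The median ratio over all genes was 0.03 on the log2 scale with TMM and 0.21 with deposited TPM, so TPM differences here include a shift shared by most genes. The members' median was 0.21 with TMM and 0.40 with TPM. In deposited TPM, 2 members passed 2-fold: Mycl, and Mnt with a ratio of 2.31, against 1.38 in CPM. Deposited TPM intervals of the 2 libraries did not overlap for 8 of 10 members, the exceptions being Max and Mlx, beside 63.2% of genes. These intervals, whose level is not stated, were computed within a library and do not cover the spread between preparations.

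The make-up of transcripts within a gene differed between the libraries for several members, among them Max and Mlx, whose gene levels were close in TPM. Of the 9 members with more than 1 annotated transcript, 5 had a leading transcript whose share of the gene's transcript TPM differed by 20 percentage points or more between libraries: Mycn, Max, Mxi1, Mnt and Mlx. Such a difference was seen in 31.1% of 7862 nuclear protein-coding genes with more than 1 transcript and a mean count of at least 100. The median difference was 21.2 points over the 9 members and 10.6 points over those genes. Transcript values are estimates from reads that transcripts share. Deposited intervals did not overlap between libraries for 15 of the 20 member transcripts with a mean count of at least 10, beside 64.3% of all such transcripts.

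**Figure D4:**
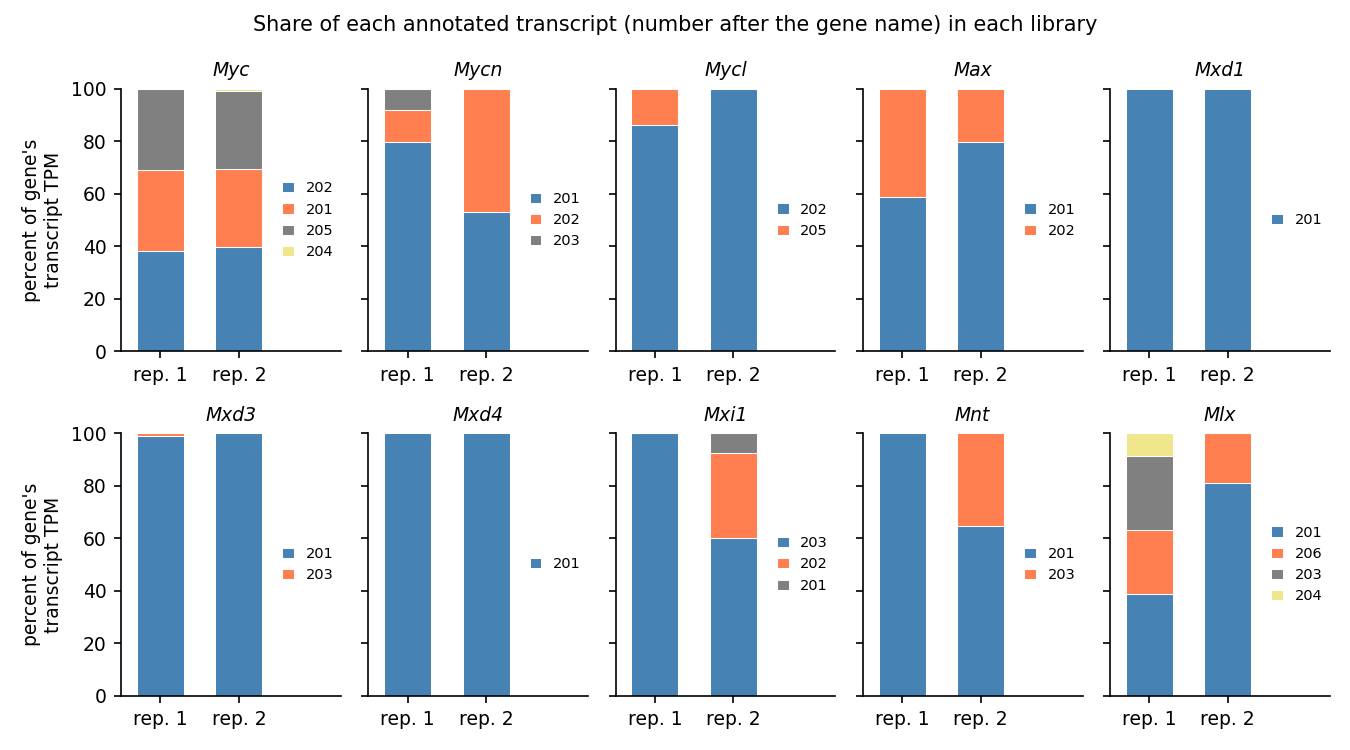
Percent of each gene's summed transcript TPM held by each annotated transcript in replicates 1 and 2, for transcripts above 0 in either library; numbers are the transcript numbers of GENCODE M21. Max, Mycn, Mxi1, Mnt and Mlx change their make-up between the libraries by 20 points or more, while Myc keeps shares within 3 points.

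For Max, the short form without the exon printed above led in both libraries. Max-201 stood at 9.42 TPM in replicate 1 and 12.63 TPM in replicate 2, and Max-202, with the exon, at 6.60 and 3.16 TPM. The exon-bearing transcript thus held 41.2% of Max in replicate 1 and 20.0% in replicate 2, 30.6% ± 15, while the gene's summed TPM differed little. The deposited intervals of Max-202 were 5.26 to 7.51 TPM and 2.50 to 3.75 TPM, and those of Max-201 did not overlap either. The deposited lengths of the transcripts, 2005 bases for Max-202 and 1978 for Max-201, differ by 27 bases, the length of the exon. In M21 the lengths are 1942 and 1926, so the quantified models are not those from which the exon was printed. The M21 models also differ by 16 bases at the 5′ end and 5 at the 3′ end.

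For Myc, the make-up was alike in both libraries. Myc-201 and Myc-205 have the same sequence in M21, so reads cannot tell them apart, and the files split them evenly. Together they held 61.8% in replicate 1 and 59.6% in replicate 2, 60.7% ± 1.56. Myc-202, whose annotated start lies 173 bases further downstream, held 38.2% and 39.7%. Both starts lie at the head of the gene, where Myc is known to use more than 1 promoter. Myc-201 and Myc-202 also differ by 3 coding bases and by 24 bases at the 3′ end. Their split is therefore not a measure of promoter use alone. The shares of Myc thus differed by less than 3 points.

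Mlx-201, with the 90-base exon, held 38.9% of Mlx in replicate 1 and 81.1% in replicate 2. Mlx-203, without it, stood at 1.87 TPM in replicate 1 and was listed at 0 in replicate 2, where its deposited upper bound was 0.0809 TPM. The transcript Mlx-206, annotated without a coding sequence, held 24.1% and 18.9%. The gene's summed TPM was steady while its make-up was not.

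Mnt-201, the full-length coding transcript of Mnt, stood at 1.01 TPM in replicate 1 and 1.51 TPM in replicate 2. Mnt-203, a retained-intron transcript of 777 bases, was listed at 0 in replicate 1 and stood at 0.82 TPM in replicate 2, on 91.79 counts. It held 35.2% of Mnt there. With coding transcripts alone the ratio of replicate 2 over replicate 1 was 1.495, in place of 2.31.

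Mxi1-203 was the only Mxi1 transcript above 0 in replicate 1, at 3.51 TPM, and stood at 2.87 TPM in replicate 2. Mxi1-202 and Mxi1-201 were listed at 0 in replicate 1 and stood at 1.55 and 0.35 TPM in replicate 2. Mxi1-201 starts from a separate upstream first exon, and held 7.34% of Mxi1 in replicate 2. The deposited lengths of Mxi1-203 and Mxi1-201, 4843 and 5156 bases, differ from 2340 and 2627 in M21, so these models were revised after M4. Mycn-201 held 79.9% and 53.0% of Mycn, and Mycn-202, which differs at its 5′ end, held 12.1% and 47.0%. Mxd1-201, Mxd4-201 and Mxd3-201 held 98.9% or more of their genes in each library, and Mycl-202 held 86.2% and 100%. With posterior mean TPM, Mycl-202 held 61.5% and 75%, and Mxd3-201 held 93.7% and 99.4%.

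The genes of MLX and MAX partners outside the 10 gave an uneven picture. Mga, which encodes a very large MAX-binding repressor, stood at 16.42 and 22.95 TPM, on the level of Myc and above each of the 5 repressors described above. Mlxip, which encodes the nutrient-sensing partner MONDOA, stood at 1.91 and 3.10 TPM. Mlxipl, which encodes the carbohydrate-responsive partner of liver and fat, had 0 counts in both libraries, so that its level was at most 0.107 CPM in replicate 1 and at most 0.0357 CPM in replicate 2. Such limits take 3 counts as the most that a count of 0 allows and cover counting error only.

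Of 12 coactivator genes, 12 were at 1 TPM or more in both libraries, with a median of 15.6 ± 1.54 TPM. Ruvbl1 and Ruvbl2, helicase subunits of chromatin complexes that MYC recruits, led at 42.2 ± 4.34 and 32.4 ± 3.23 TPM. Of 12 corepressor genes, 12 also passed, with a median of 17.8 ± 2.78 TPM. Over all nuclear protein-coding genes the share at that level was 42.5%. Ncor1, a nuclear corepressor, led at 73.7 ± 5.34 TPM, followed by Rbbp7 at 64.1 ± 1.84 TPM. Sin3a, the scaffold that MXD proteins bind, stood at 21.74 and 18.66 TPM, and Zbtb17, which encodes the MYC partner MIZ1, at 3.16 and 4.31 TPM.

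Genes for the turnover of MYC protein were at 1 TPM or more in both libraries in 14 of 14 cases, beside 42.5% of nuclear protein-coding genes. Their median was 9.40 ± 2.12 TPM. Huwe1, a ubiquitin ligase, stood at 33.62 and 43.75 TPM, and Axin1, a scaffold protein gene, at 39.33 and 32.24 TPM, so their order turned between the libraries. Pim1, a kinase known to stabilize MYC, stood at 28.2 ± 6.06 TPM. The deubiquitinase genes Usp36 and Usp28 stood lower, at means of 2.70 and 1.98 TPM.

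**Figure D5:**
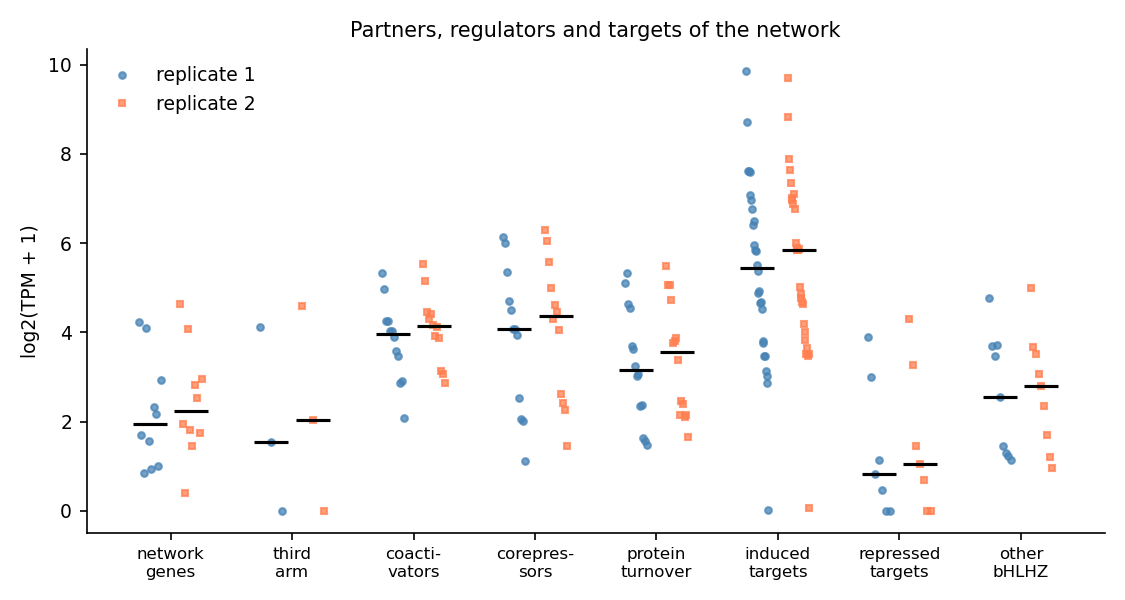
Log2(TPM + 1) of the 10 network genes and of 7 gene lists around them in replicate 1 (circles) and replicate 2 (squares), with each list's median as a black bar. Induced targets have the highest median, and repressed targets the lowest.

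Genes known to be induced by MYC had a median far above that of all nuclear protein-coding genes, and genes known to be repressed by it reached 1 TPM about as often as those genes. Of 28 induced targets, 27 were at 1 TPM or more in both libraries, beside 42.5% of nuclear protein-coding genes. Their medians were 42.4 and 56.4 TPM, or 49.4 ± 9.90. Npm1, a nucleolar chaperone gene, led at 923 and 827 TPM, followed by Nop58 at 436 ± 25.0, Ncl at 215 ± 27.4, Eif4a1 at 197 ± 3.05 and Cdk4 at 177 ± 22.7 TPM. The lowest were Bop1 at 8.57 ± 2.11, Srm at 8.39 ± 2.93 and Tert, the telomerase gene, at 0.02 and 0.04 TPM on 6 and 25 counts. The list holds housekeeping genes of ribosome assembly, translation and metabolism that are high in many dividing cells.

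Of 7 repressed targets, 3 were at 1 TPM or more in both libraries, a share near the 42.5% of all nuclear protein-coding genes. Their median was 0.910 ± 0.212 TPM, beside 0.320 ± 0.0424 TPM over those genes. Ndrg1, a stress-responsive gene, stood at 13.92 and 18.53 TPM, Gadd45a at 6.96 and 8.57 TPM and Gadd45b at 1.20 and 1.06 TPM. Cdkn1a, which encodes the cell cycle inhibitor p21, stood at 0.76 and 1.73 TPM, and Ndrg2 at 0.39 and 0.61 TPM. Cdkn2b, which encodes the inhibitor p15, and Gas1 had 0 counts in both. The induced median exceeded the repressed median by 4.62 in replicate 1 and 4.80 in replicate 2 on the log2(TPM + 1) scale, 4.71 ± 0.13. No state with altered MYC was measured, so these levels do not say what MYC does to these genes here.

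Other E-box-binding factors of the same structural class were measured for comparison. Of these, 8 of 9 were at 1 TPM or more in both libraries, beside 42.5% of nuclear protein-coding genes. Usf2, a ubiquitous activator, had the highest TPM of them in each library, at 26.29 and 30.86. Tfap4, itself a known MYC target, stood at 11.86 and 11.69 TPM, Usf1 at 10.16 and 10.46 TPM, and Srebf1, a lipid synthesis regulator, at 12.24 and 7.34 TPM. Srebf2 stood at 4.84 and 5.95 TPM. The lysosome and pigment cell group was lower: Tfec at 1.75 and 4.12 TPM, Tfe3 at 1.47 and 2.25, Tfeb at 1.33 and 1.30, and Mitf at 1.19 and 0.95 TPM.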

How the data were processed

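Total RNA-seq of 2 libraries of common myeloid progenitors was used as deposited. Each library has a gene-level and a transcript-level table, made on mm10 and GENCODE M4 as its readme says. The aligner and quantifier are not given in the sources used here. The deposited tables give expected counts (estimated reads per gene or transcript), TPM, posterior mean TPM, FPKM and the percent of a gene held by each transcript, per the file headers. TPM is relative to all entries of the deposited tables, and nuclear protein-coding genes held 20.1% and 21.5% of it. Of the 43346 Ensembl genes, 42462 matched GENCODE M21 (GRCm38, the same assembly), which gave names, classes and coordinates. Entries with numeric identifiers held 0 and 83 counts and were left out of library sizes.

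The members and gene lists were chosen with earlier results of these data known. Levels were TPM per library. CPM ratios used expected counts rounded to whole numbers, TMM scaling in edgeR 4.0.16 (DESeq2 1.42.0 size factors as an alternative) in R 4.3.3, a prior count of 0.5 and a mean count of at least 10. Transcript shares were taken from transcript TPM. The ratio step was tested on simulated counts. The members' counts were whole numbers, so the files show no reads divided between them and other genes. The libraries differed beyond sampling noise (chi-square per gene 55.7 over 15115 genes). This value cannot tell separate donors from separate preparations of one sample. The libraries were counted as separate samples because they are labelled biological replicates. Named genes were the 10 members, every gene of the short lists and markers, the 5 highest and 3 lowest of the coactivator, corepressor, turnover and induced lists, and the 3 genes nearest to Myc. Some genes under this rule are not reported here. Tables and figures were made in Python 3.11.15 (numpy 2.4.6, pandas 2.3.3, matplotlib 3.10.9). Promoter sequences are from RefSeq (GRCm38.p6).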

Additional observations from a re-analysis of the deposited data

How the results depend on the processing

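No paired analysis was possible because the study has 1 group. Of 10 members, 8 were at 1 TPM or more in both libraries, 3 passed at 5 TPM, and leaving out either library gave 8 to 9. The MYC share of the 10 genes was 38.0% to 40.5% in single libraries and 35.4% in CPM. The log2 ratio of MYC proteins over the 5 MAX-binding repressors was 0.64 to 0.87 in single libraries. It reversed to -0.11 in CPM, which does not divide by length. The order also depends on leaving out Mga. Members past 2-fold between libraries numbered 1, or 2 with the ratio of deposited TPM and 2 with that of posterior mean TPM; size factors of DESeq2, the library total, other count minimums and a prior count of 5 gave 1. The induced median was 42.4 to 56.4 TPM in single libraries, and 236 after rescaling TPM to nuclear protein-coding genes. Induced minus repressed was 4.62 to 4.80 in single libraries, 5.62 with a pseudocount of 0.1 and 4.39 over genes with at least 10 counts. Added after seeing the data, a level from coding transcripts alone gave 4.97 ± 0.771 TPM for Mlx, below Mxd4 at 5.05 ± 1.47 TPM. By the same measure Mnt, at 1.26 ± 0.354 TPM, was below Mxd3, at 1.325 ± 0.601 TPM. Both orders turned in replicate 2 only. Depth limits low transcripts most: Mxd3 rested on 78 counts in replicate 1.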
